A study of Mus musculus with 18 samples.

Results

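The ribosome biogenesis genes described here are 59 genes whose products make, modify, fold or export ribosomal RNA and its subunits. A gene was measured where a probe named that gene alone, and the brightest such probe over the 18 arrays stood for it. By this rule 57 of the 59 were measured, among 19935 genes in all. Ppan shared its probe's annotation with another gene and Noc2l had no probe naming it alone, so both are not analysed here. The measured genes were 22 small subunit factors, 19 large subunit factors and 16 nucleolar, snoRNP and RNA polymerase I factors.

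Mouse embryonic stem cells were profiled on whole-transcript arrays, 12 for R1E cells and 6 for p53-/- cells. The R1E line, kept in culture with leukemia inhibitory factor, was given adriamycin at 0.5 µM and examined at 8 hours, irradiated with 25 J/m² of ultraviolet light (UV) and examined at 8 hours, or mock treated, with n = 4 arrays each. The p53-/- cells, labelled as embryonic stem cells of 129X1 x 129S1 background and grown in the same medium with the same factor, were given 0.5 µM adriamycin for 8 hours or left untreated, with n = 3 arrays each, and which p53 allele or clone they carry is not stated in the labels. Adriamycin (doxorubicin) is a topoisomerase II poison that breaks DNA, and the p53 protein is the transcription factor that answers such breaks. The series' design text states the question as which expression changes after adriamycin depend on p53. Whether replicate arrays stand for separate cultures is not stated in the labels, and the p-values therefore cover only array-to-array spread, some or all of which may be technical.

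Ribosomes are built in the nucleolus. RNA polymerase I transcribes a long precursor, small nucleolar ribonucleoproteins (snoRNPs) methylate and pseudouridylate it, and separate sets of assembly factors cut and fold it into the small and the large subunit. Growth factors and MYC proteins are known to raise these genes together, and free ribosomal proteins of a stalled large subunit are known to bind MDM2 and stabilise p53.

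All values are log2 intensities as deposited, the arrays of a group are listed from low to high, a change is the difference of group means on that scale with its standard error (SE), and calls were made in limma where the p adjusted by Benjamini-Hochberg over all 19935 genes was below 0.05. Every member was bright, with group means above 6 in each group. The median level of the 57 members was 9.41 to 9.48 on the R1E adriamycin arrays, 9.71 to 9.78 on the UV arrays and 9.81 to 9.89 on the mock arrays, so the adriamycin arrays lay below all others of R1E. On the p53-/- arrays it was 9.40 to 9.45 after adriamycin and 9.26 to 9.48 untreated, where the groups overlapped. The array median over all genes was 0.125 higher after adriamycin than in mock, and centring the arrays on it gave 9640 genes lower and 3281 higher for that comparison, against 5110 and 4397 as deposited. Centring likewise gave 5678 lower and 3102 higher for UV against mock (4236 and 4515 as deposited) and 6413 lower and 3411 higher for adriamycin against UV (4420 and 3950 as deposited). Relative to the median of all genes, the members' median change after adriamycin was -0.235, which centring leaves as it is by construction, -0.178 with quantile normalization and -0.178 with genes of a mean below 6 left out. The sets of R1E and p53-/- arrays were processed separately, so levels were compared only within a set. In any difference between the sets, genotype, line, array set and software cannot be told apart. The p53-/- label was not checked on Trp53, which is not analysed here.

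The promoters of these genes were searched because MYC proteins bind the E-box and because many housekeeping promoters hold the core of an ETS site. RefSeq promoter windows of assembly GRCm38.p6, 250 bases before to 50 after the start, matched 49 of the 57 members. The E-box was searched as CACGTG, which reads the same on both strands, and the ETS core as CCGGAAG on both strands. The 2 words cannot overlap each other, and a match is only a description of the window. The windows below are 100 bases each from before the start, written along the gene's strand, with every whole match in capitals. They are a selection among members whose values are given later. Not shown are windows with the ETS core of Nip7, Gar1, Nvl, Heatr1 and Bms1, which were lower after adriamycin in R1E. Those of Nhp2 and Taf1c, not called, and of Brix1, higher after adriamycin, are not shown either, nor is a further window of Utp18.
Utp18 promoter, chr11:93885767-93885866, minus strand: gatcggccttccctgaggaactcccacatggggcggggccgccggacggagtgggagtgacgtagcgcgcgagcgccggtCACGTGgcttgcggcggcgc
Imp4 promoter, chr1:34439661-34439760, plus strand: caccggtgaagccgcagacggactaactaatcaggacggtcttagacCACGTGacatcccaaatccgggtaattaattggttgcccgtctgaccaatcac
Nop2 promoter, chr6:125131776-125131875, plus strand: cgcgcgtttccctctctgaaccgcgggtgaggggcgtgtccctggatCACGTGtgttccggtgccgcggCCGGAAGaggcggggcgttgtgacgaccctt
Rrn3 promoter, chr16:13780449-13780548, plus strand: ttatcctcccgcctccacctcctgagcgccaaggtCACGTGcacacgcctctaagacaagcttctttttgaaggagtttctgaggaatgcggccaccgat
Nolc1 promoter, chr19:46075747-46075846, plus strand: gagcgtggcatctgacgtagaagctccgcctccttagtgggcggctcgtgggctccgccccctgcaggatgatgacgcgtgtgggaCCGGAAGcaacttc
Emg1 promoter, chr6:124712246-124712345, minus strand: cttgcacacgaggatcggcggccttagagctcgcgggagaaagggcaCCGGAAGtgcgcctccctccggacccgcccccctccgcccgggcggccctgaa
Ltv1 promoter, chr10:13193183-13193282, minus strand: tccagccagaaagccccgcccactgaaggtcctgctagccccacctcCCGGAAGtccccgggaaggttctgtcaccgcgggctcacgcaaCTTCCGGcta
Ddx10 promoter, chr9:53248247-53248346, minus strand: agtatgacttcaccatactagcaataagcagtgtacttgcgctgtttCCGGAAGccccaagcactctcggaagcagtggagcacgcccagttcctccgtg
The window of Nop2 holds both words, that of Ltv1 holds the ETS core on both strands (CTTCCGG is its reverse complement), and each of the others shows 1 match. The E-box stood in the 300-base window of 10 of 49 members (20.4%), against 9.5% of the 15612 array genes with a window, but in the 250 bases before the start it stood in 8.16% of members and 8.11% of array genes. The ETS core stood in the 300-base window of 21 members (42.9%), against 13.6% of array genes, and in the bases before the start of 14 members (28.6%), against 10.7%. These shares had no test. After adriamycin in R1E, members with an E-box had 6 of 10 lower and 1 higher (median change -0.30), and members without one had 32 of 39 lower and 2 higher (median change -0.25). Members with the ETS core had 14 of 21 lower and 2 higher (median -0.24), and those without it 24 of 28 lower and 1 higher (median -0.26).

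The first comparison set adriamycin against mock treatment in R1E. Of the 57 members 42 were lower and 3 higher than in mock cells, where over all genes 25.6% were lower and 22.1% higher. Falls were of modest size: the members' median change was -0.25, against -0.02 over all genes. None was called with a fall past 2-fold, against 292 of all 19935 genes. Among the 10004 genes with a mean of 6 or more on the R1E arrays, a closer background for these bright genes, 41.2% were lower and 29.1% higher, with a median change of -0.07. Of these 10004 genes 255 were called with a fall past 2-fold, so falls of that size were rare there too. By role, 17 of 22 small subunit factors were lower and 1 higher (median -0.29), 16 of 19 large subunit factors lower and 1 higher (median -0.32), and 9 of 16 nucleolar, snoRNP and RNA polymerase I factors lower and 1 higher (median -0.22). The mean level of 10 embryonic stem cell markers, all above 6 in every group, moved with this result, at 10.35 to 10.46 after adriamycin and 11.05 to 11.10 in mock cells, and its part in the result was not tested. The mean level of 10 fibroblast markers was 5.42 to 5.52 after adriamycin and 5.41 to 5.52 in mock cells, with 5 genes above 6 in both. That of 9 endoderm and trophectoderm markers was 5.46 to 5.64 after adriamycin, with 3 genes above 6, and 5.85 to 5.95 in mock cells, with 4 above 6. That of 7 neural and mesoderm markers was 4.83 to 5.01 after adriamycin and 5.07 to 5.15 in mock cells, with 1 gene above 6 in both. Neither set overlapped between the groups, and their part in the result was not tested. In bulk samples, fewer cells of a type and less RNA per cell cannot be told apart.

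**Figure D1:**
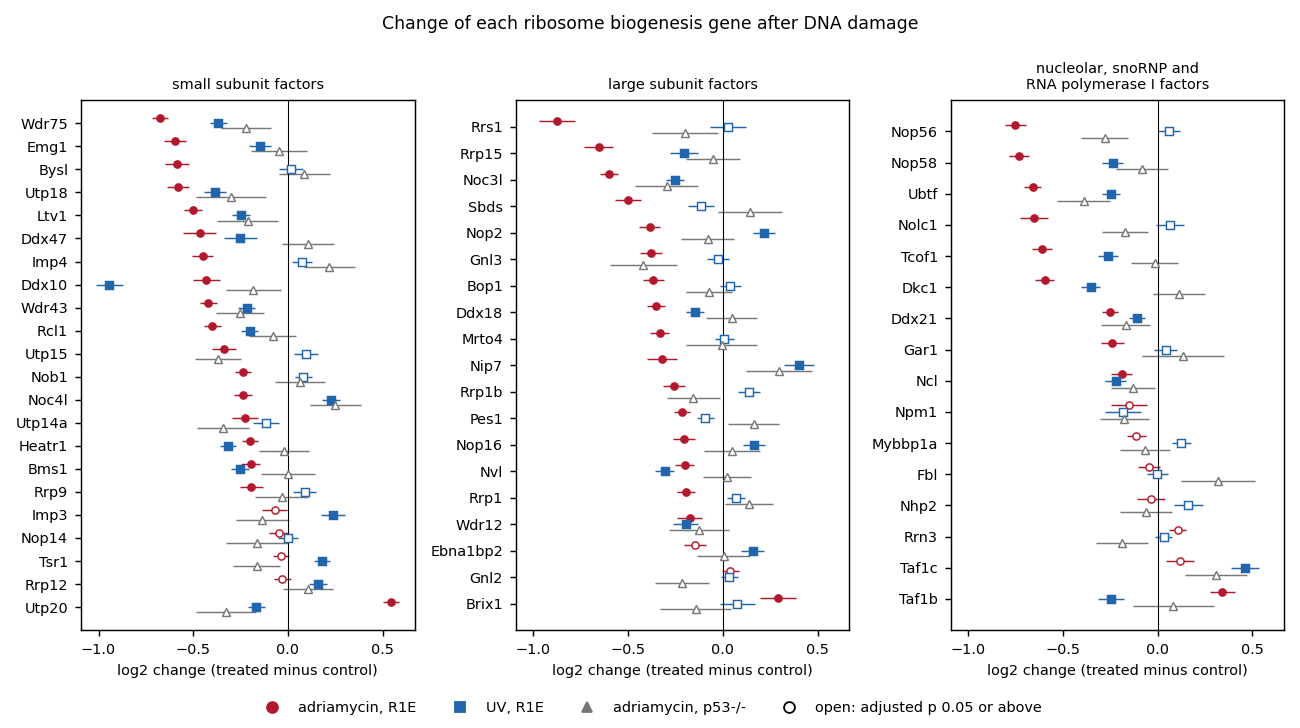
Log2 change of each of the 57 genes (x axis, with SE bars) after adriamycin in R1E, UV in R1E and adriamycin in p53-/- cells, in a panel per role class, with filled symbols for adjusted p below 0.05. Filled adriamycin symbols in R1E lie left of 0 for 42 genes and right of it for Utp20, Taf1b and Brix1, UV symbols lie on both sides, and all p53-/- symbols are open.

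Among the small subunit factors, the largest fall was in Wdr75, a subunit of the complex that binds the nascent precursor first and is also needed for its transcription. Wdr75 had 9.08, 9.12, 9.15 and 9.18 after adriamycin, against 9.77, 9.79, 9.83 and 9.84 in mock cells. The change was -0.68 ± 0.04 (adjusted p = 1.6e-09), 1.60-fold lower, with no overlap between the groups. Among the members, its partners in that complex fell less, Heatr1 by 0.20, Utp15 by 0.34 and Wdr43 by 0.42 on the log2 scale. Of its partners in the wider list described below, Utp4 was at 10.545 to 10.672 after adriamycin and 10.877 to 10.991 in mock cells. The partner Nol11 went the other way, at 9.206 to 9.383 after adriamycin and 9.045 to 9.159 in mock cells. Emg1, which methylates a pseudouridine of 18S rRNA, fell by 0.60 (SE 0.06), and Bysl, a late factor of the pre-40S particle, fell by 0.59 (SE 0.06). Bysl had 8.04, 8.16, 8.22 and 8.32 after adriamycin, against 8.68, 8.78, 8.80 and 8.85 in mock cells, again without overlap. Utp18, a scaffold subunit of the processome, fell by 0.58 (SE 0.06), and Ltv1, a late pre-40S factor, by 0.50 (SE 0.05).

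Utp20, a very large scaffold protein of the same processome, went the other way. It had 10.68, 10.71, 10.75 and 10.77 after adriamycin, against 10.16, 10.19, 10.19 and 10.20 in mock cells, a rise of 0.54 ± 0.04 (adjusted p = 2.43e-08). All adriamycin arrays lay above all mock arrays. The other 4 small subunit factors did not pass the test: Imp3 at -0.07, Nop14 at -0.05, Tsr1 at -0.04 and Rrp12 at -0.03.

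Among the large subunit factors, Rrs1, which helps to bring the 5S ribonucleoprotein into the pre-60S particle, had the largest fall of all 57 members. Rrs1 had 6.78, 6.98, 7.04 and 7.09 after adriamycin, against 7.70, 7.71, 7.95 and 8.02 in mock cells. The change was -0.88 ± 0.09 (adjusted p = 6.51e-07), 1.84-fold lower, and the groups did not overlap. Rrp15 fell by 0.66 (SE 0.07), Noc3l by 0.60 and Sbds, which helps to release the anti-association factor eIF6 from the finished subunit, by 0.50 (SE 0.07). The 3 subunits of the PeBoW complex, which processes the precursor of 28S rRNA, fell by less: Bop1 by 0.37 (SE 0.05), Pes1 by 0.22 (SE 0.04) and Wdr12 by 0.18 (SE 0.07). Gnl3 (nucleostemin), a nucleolar GTPase abundant in stem cells, fell by 0.38 (SE 0.06), and Nvl, an AAA ATPase of pre-60S maturation, by 0.20 (SE 0.05). Brix1, an early pre-60S factor, was higher by 0.29 ± 0.09 (adjusted p = 0.0171), with 10.46, 10.60, 10.67 and 10.79 after adriamycin and 10.19, 10.34, 10.39 and 10.44 in mock cells. Ebna1bp2 (-0.15) and Gnl2 (0.04) did not pass the test.

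The nucleolar class was split. Of the box C/D snoRNP proteins, which guide methylation of rRNA, the scaffold proteins Nop56 and Nop58 fell and the methyltransferase Fbl (fibrillarin) did not pass the test. Nop56 had 10.33, 10.36, 10.44 and 10.48 after adriamycin, against 11.03, 11.16, 11.20 and 11.23 in mock cells, a change of -0.75 ± 0.06 (adjusted p = 8.83e-09). Nop58 had 9.86, 9.90, 9.94 and 10.09 after adriamycin, against 10.67, 10.67, 10.68 and 10.70 in mock cells, a change of -0.73 ± 0.06 (adjusted p = 8.76e-09). Fbl had 9.81, 9.84, 9.91 and 9.95 after adriamycin, against 9.87, 9.87, 9.90 and 10.04 in mock cells. The Fbl groups overlapped, and the interval of its change ran from -0.17 to 0.08 at the 95% level. Of the box H/ACA proteins, which guide pseudouridylation, the synthase Dkc1 fell by 0.60 (SE 0.05) and Gar1 by 0.24, while Nhp2 was at -0.04 and not called.

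The chaperone-like nucleolar proteins Nolc1 and Tcof1, which tie snoRNPs to RNA polymerase I transcription, fell by 0.65 (SE 0.07) and 0.61 (SE 0.05). Nolc1 had 9.37, 9.44, 9.55 and 9.64 after adriamycin, against 10.05, 10.12, 10.19 and 10.25 in mock cells. Of the abundant nucleolar proteins, Ncl (nucleolin) fell by 0.19 (SE 0.06), and Npm1 (nucleophosmin) was at -0.15 ± 0.10 and not called (adjusted p = 0.223). The factors that load RNA polymerase I differed among themselves. Ubtf, which binds the rDNA promoter and body, had 9.42, 9.43, 9.45 and 9.48 after adriamycin, against 10.09, 10.10, 10.11 and 10.13 in mock cells, a fall of 0.66 (SE 0.05). Taf1b, of the promoter selectivity factor, rose by 0.34 ± 0.07 (adjusted p = 0.000444). Its partner Taf1c (0.12) and the initiation factor Rrn3 (0.11 ± 0.05, adjusted p = 0.0681) did not pass the test.

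**Figure D2:**
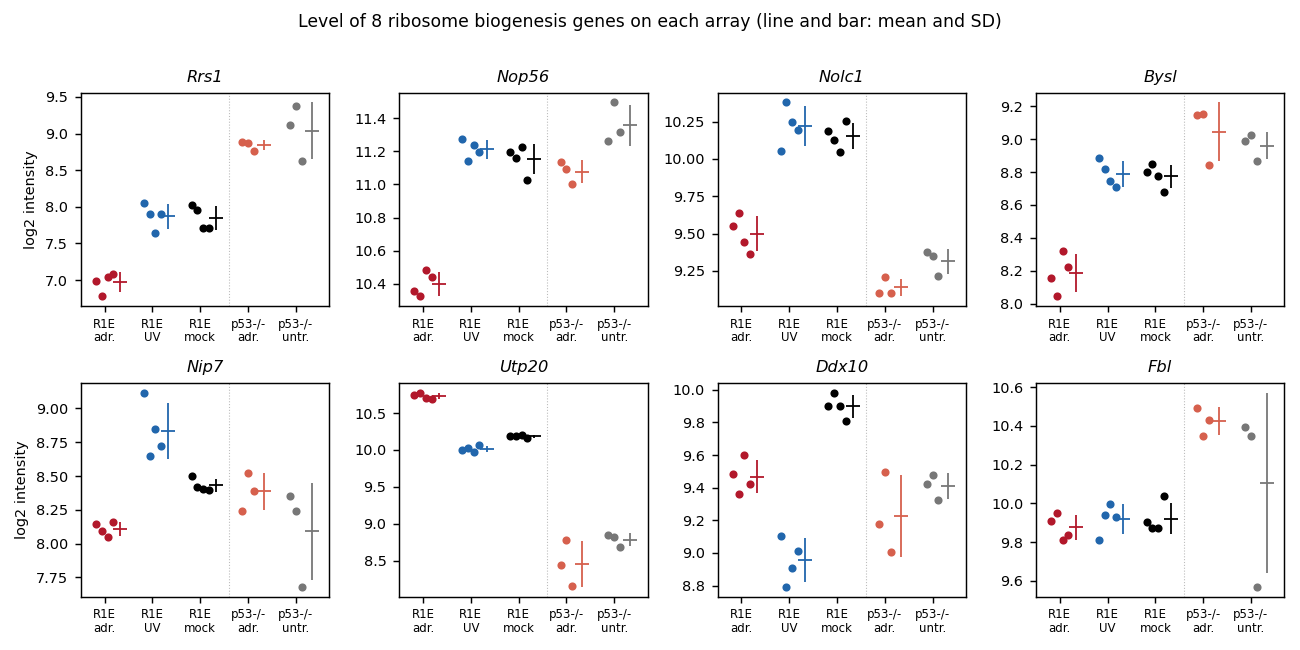
Log2 intensity (y axis) of 8 members on every array, by group on the x axis from R1E adriamycin to untreated p53-/-, each dot an array and the line and bar beside the dots the mean and SD. Rrs1, Nop56, Nolc1 and Bysl are low only on the R1E adriamycin arrays within their set, Utp20 is high there, Ddx10 is lowest after UV, and Fbl does not separate the R1E groups.

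The wider pathway, a list of 117 other measured genes, had 73 lower and 12 higher after adriamycin in R1E (62.4% and 10.3%) and a median change of -0.27, where 25.6% of all genes were lower and 22.1% higher, and 41.2% and 29.1% of those with a mean of 6 or more. Its parts had 6 of 15 genes of RNA polymerase I and its promoter factors lower and 2 higher, 23 of 36 other small subunit factors lower and 3 higher, 26 of 42 other large subunit factors lower and 5 higher, 8 of 11 snoRNP assembly factors lower and 1 higher, and 10 of 13 exosome genes lower and 1 higher. The largest falls per part were Twistnb (-0.80) and Znrd1 (-0.68) among RNA polymerase I genes, Mphosph10 (-0.56) and Dcaf13 (-0.50) among small subunit factors, and Senp3 (-1.21), a SUMO protease of the nucleolus, and Urb2 (-1.07) among large subunit factors. For snoRNP assembly they were Naf1 (-0.59) and Nop10 (-0.51), and for the exosome, which trims rRNA precursors, Exosc4 (-0.72) and Mtrex (-0.58). The largest rises, in the same order of parts, were Polr1e (0.51) and Polr1a (0.17), Pwp2 (0.72) and Rrp36 (0.62), Ddx56 (0.58) and Nol9 (0.22), Ruvbl2 (0.17) and Exosc9 (0.51). Of the MYC genes, known regulators of this pathway, Mycn fell by 1.83 and Myc by 0.82 in that comparison. Mdm2, a p53 target, rose by 1.89, and Rpl5, a ribosomal protein that binds MDM2, was at 0.02 and not called.

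The second comparison set UV against the same mock arrays, so it shares its controls with the first and the values stand side by side. After UV 23 members were lower and 9 higher, where 21.2% of all genes were lower and 22.6% higher, and the members' median change was -0.002, against 0.032 over all genes. Among the genes with a mean of 6 or more 35.5% were lower and 29.0% higher. This split depended on scaling. Centring gave 27 members lower and 5 higher, where 5678 and 3102 of all genes were lower and higher. Quantile normalization gave 16 members lower and 17 higher with a median of 0.05. Under it 4534 of all genes were lower and 3972 higher, with a median of -0.005. No net direction of the members after UV is therefore given. By class, 11 of 22 small subunit factors were lower and 4 higher, 5 of 19 large subunit factors lower and 4 higher, and 7 of 16 nucleolar, snoRNP and RNA polymerase I factors lower and 1 higher. The embryonic stem cell markers were at 10.80 to 10.87 after UV, between the adriamycin and the mock arrays.

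Of the members lower after adriamycin, 21 were also lower after UV, 17 were not called and 4 were higher, namely Nip7, Nop2, Nop16 and Noc4l. The same split of all genes lower after adriamycin was not counted, and both comparisons share their mock arrays. These counts therefore have no background to be read against. Utp20 and Taf1b, higher after adriamycin, were lower after UV, at -0.17 ± 0.04 and -0.25 ± 0.07. The largest fall after UV was in Ddx10, a DEAD-box helicase of the small subunit processome. Ddx10 had 8.79, 8.91, 9.01 and 9.10 after UV, against 9.81, 9.90, 9.90 and 9.98 in mock cells, a change of -0.94 ± 0.07 (adjusted p = 1.32e-08) without overlap. The next falls were Utp18 (-0.39), Wdr75 (-0.37), Dkc1 (-0.35), Heatr1 (-0.32) and Nvl (-0.31), then Tcof1 (-0.26). Among the smaller falls were those of Noc3l, Bms1, Ddx47, Ltv1, Taf1b and Ubtf (-0.25 each), Nop58 (-0.24), Ncl and Wdr43 (-0.22 each), and Rrp15, Rcl1 and Wdr12 (-0.20 each). The largest rises were Taf1c (0.46 ± 0.07), Nip7 (0.40 ± 0.08), Imp3 (0.24), Noc4l (0.23), Nop2 (0.22), Tsr1 (0.18) and Nop16 (0.16). Nip7, a pre-60S factor, had 8.65, 8.72, 8.85 and 9.11 after UV, against 8.40, 8.41, 8.42 and 8.50 in mock cells, all UV arrays above all mock arrays. Mycn fell by 0.63 after UV and Myc rose by 0.16.

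Set directly against UV, adriamycin left 41 members lower and 4 higher, where 22.2% of all genes were lower and 19.8% higher. The median difference was -0.26, against -0.04 over all genes. The large subunit factors had 15 of 19 lower and none higher (median -0.35), the small subunit factors 15 of 22 lower and 3 higher (median -0.22), and the nucleolar, snoRNP and RNA polymerase I factors 11 of 16 lower and 1 higher (median -0.24). Rrs1 was at 6.78, 6.98, 7.04 and 7.09 after adriamycin, against 7.64, 7.90, 7.91 and 8.05 after UV, a difference of -0.90 ± 0.09 (adjusted p = 9.59e-07). Nop56 averaged 10.40 ± 0.07 after adriamycin and 11.21 ± 0.06 after UV (SD, n = 4 each), a difference of -0.81 ± 0.06 SE. Nip7 differed by -0.72, with 8.05, 8.09, 8.15 and 8.16 after adriamycin, since its UV arrays lay above and its adriamycin arrays below those of mock cells.

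Nolc1 differed by -0.72 and Nop58 by -0.50, Bysl and Nop2 by -0.60 each, Imp4 by -0.52, Noc4l by -0.46, Emg1 and Rrp15 by -0.45 each, and Ubtf by -0.41. Of the panel members, Gnl3 (-0.36), Sbds (-0.38), Bop1 (-0.41) and Pes1 (-0.12) were also lower after adriamycin than after UV. Ncl, Npm1, Wdr12, Fbl, Nvl and Rrn3 were not called, with differences from -0.04 to 0.11. The 4 members higher after adriamycin than after UV were Utp20 (0.71), Taf1b (0.59), Ddx10 (0.51) and Heatr1 (0.12), which are among the longest of the 57 genes.

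Gene span, which the choice of members did not use, varied from 0.899 kb in Imp3 to 149.7 kb in Ddx10 in RefSeq (GRCm38.p6). Across the 57 members the change after UV went with span, with Spearman's rho of -0.642, against -0.294 over 19853 genes with a span. For adriamycin in R1E rho was 0.028 across the members and 0.035 over all genes. These points come from the same arrays and share their mock values, and genes are not independent replicates, so rho is a description. Of the 17 members under 10 kb, 1 was lower and 6 higher after UV (median 0.08), of the 33 from 10 to 40 kb 15 were lower and 3 higher (median -0.11), and all 7 above 40 kb were lower (median -0.25). Over all genes 6.59% of those under 10 kb were lower after UV and 24.5% higher (median 0.07). From 10 to 40 kb 18.5% of all genes were lower and 28.2% higher (median 0.05), where the members' median was below 0. Above 40 kb 43.1% of all genes were lower and 13.3% higher (median -0.08). A slope of the same sign was thus present over all genes. The 7 members above 40 kb were Ddx10, Utp20 (80.2 kb), Taf1b (60.0 kb), Nvl (57.1 kb), Heatr1 (43.5 kb), Wdr43 (42.9 kb) and Rcl1 (42.5 kb). Adriamycin against UV had 17 of 17 members under 10 kb lower, against 28.1% of all genes of that span.

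**Figure D3:**
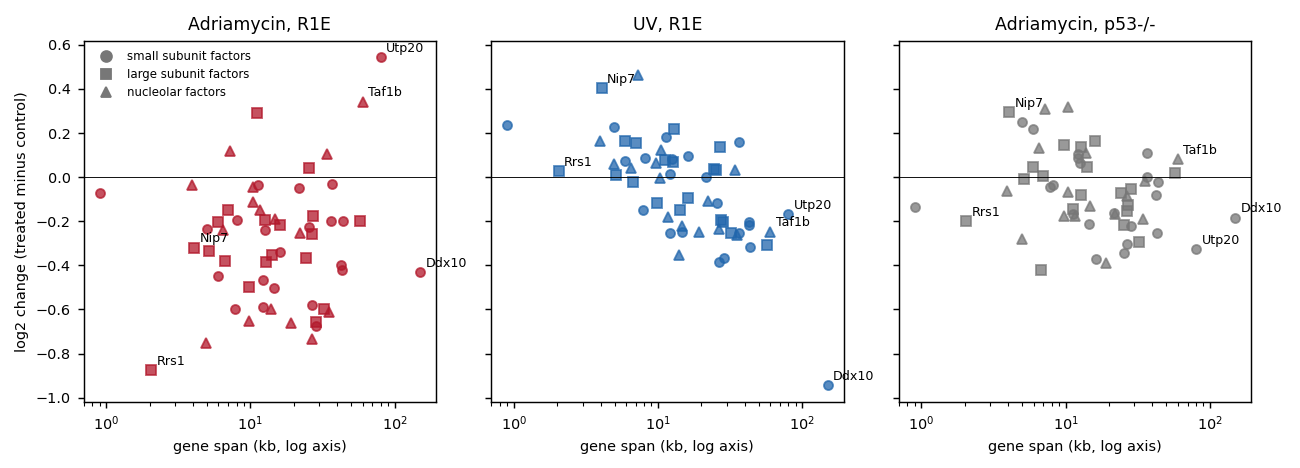
Log2 change (y axis) of each of the 57 members against gene span in kb (log x axis), for adriamycin in R1E, UV in R1E and adriamycin in p53-/- cells, with a symbol shape per role class. After UV the points descend from Nip7 at a short span to Ddx10 at 149.7 kb, and after adriamycin in R1E they show no slope, with Utp20 and Taf1b above 0.

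The third comparison asked what adriamycin changed in p53-/- cells. None of the 57 members was called by limma, where over all genes 0.0803% were lower and 0.015% higher. An unadjusted p under 0.05 was found in 5 members and in 2319 of all 19935 genes. Among the 8864 genes with a mean of 6 or more on the p53-/- arrays it was found in 1301. The median change of the members was -0.07, against 0.06 over all genes. This set was less precise: the median SE of a member's change was 0.139, against 0.056 in R1E. Untreated replicate 3 stood apart, being the lowest of its group in 41 of the 57 members, and without it 2 members were lower (Utp18 and Gnl3), 1.54% of all genes were lower, and the members' median change was -0.16. The p53-/- arrays also held fibroblast marker signal, with a mean of 7.11 to 7.40 after adriamycin and 7.34 to 7.43 untreated and 8 of 10 genes above 6, and its part in the result was not tested. Their embryonic stem cell markers, all 10 above 6, were at 10.01 to 10.06 after adriamycin and 10.08 to 10.22 untreated. Of the endoderm and trophectoderm markers 7 of 9 were above 6 after adriamycin and 8 of 9 untreated, and their mean level overlapped between the groups. Neural and mesoderm markers were at 6.01 to 6.03 after adriamycin and 5.76 to 5.91 untreated, with 3 of 7 above 6 in both, and the part of these sets was not tested.

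In 49 of the 57 members the p53-/- groups overlapped. Rrs1 had 8.76, 8.87 and 8.89 after adriamycin, against 8.62, 9.12 and 9.38 untreated, and replicate 3 gave the 8.62. Gnl3 had 9.41, 9.50 and 9.54 after adriamycin, against 9.45, 10.07 and 10.18 untreated, where replicate 3 gave the 9.45 and the change was -0.42 ± 0.18 (adjusted p = 0.394). Utp18 had 8.09, 8.20 and 8.23 after adriamycin, against 8.00, 8.60 and 8.81 untreated, with replicate 3 again the lowest. In the other 8 all adriamycin arrays lay below all untreated arrays, and in none above. These were Wdr43, Utp14a, Utp15, Nop56, Ncl, Npm1, Nolc1 and Ubtf, and none passed the test. The share of all genes without overlap was not counted, so the 8 members have no background to be read against. Nop56 had 11.00, 11.10 and 11.13 after adriamycin, against 11.26, 11.32 and 11.49 untreated (-0.28 ± 0.12, adjusted p = 0.419). Ubtf had 8.41, 8.52 and 8.87 after adriamycin, against values from 8.94 to 9.03 untreated (-0.39 ± 0.14, adjusted p = 0.304). Mycn (0.17), Myc (-0.05) and Mdm2 (0.19) were not called either.

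The fourth comparison tested the difference itself, the adriamycin effect in R1E minus that in p53-/- cells, with each set keeping its own spread. Of the 57 members 15 had a lower effect in R1E and 1 a higher effect, where 11.4% of all genes were lower and 10.4% higher. The median difference was -0.27, against -0.07 over all genes, and among genes with a mean of 6 or more 17.8% were lower and 14.2% higher. All 15 were among the 42 that fell after adriamycin in R1E, and the other 27 of those 42 did not differ between the lines past the threshold. The difference contains the R1E change itself, and no member was called in p53-/- cells, so this containment is largely built in. The same count over all genes was not made. Across the members the effects of the lines had a Pearson r of 0.147 (n = 57 genes, a description), against 0.213 over all genes, and 36 of 57 had the same sign. By class 6 of 22 small subunit factors, 4 of 19 large subunit factors and 5 of 16 nucleolar, snoRNP and RNA polymerase I factors were lower.

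Among the lower effects Dkc1 had the largest difference, -0.71 ± 0.15 (adjusted p = 0.00222), and its p53-/- groups overlapped. Dkc1 had 9.53, 9.56, 9.57 and 9.68 after adriamycin in R1E, against 10.13, 10.14, 10.21 and 10.24 in mock cells. In p53-/- cells it had 10.15, 10.33 and 10.34 after adriamycin, against 9.95, 10.23 and 10.31 untreated. Bysl differed by -0.67 ± 0.15 (adjusted p = 0.00267), with 8.84, 9.14 and 9.15 after adriamycin in p53-/- cells, against 8.87, 8.99 and 9.02 untreated. Imp4, of the complex that pairs U3 snoRNA with the precursor, differed by -0.67 ± 0.15 (adjusted p = 0.00323). Imp4 had 8.79, 8.87, 8.90 and 8.98 after adriamycin in R1E, against 9.33, 9.33, 9.34 and 9.34 in mock cells, and 9.14, 9.40 and 9.52 after adriamycin in p53-/- cells, against 9.06, 9.10 and 9.23 untreated. These 3 were at or above their untreated mean in p53-/- cells after adriamycin, with overlapping arrays.

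Nop58 differed by -0.65 (adjusted p = 0.00431), Tcof1 by -0.59 (adjusted p = 0.00434) and Rrp15 by -0.60 (adjusted p = 0.0109). Rrs1 differed by -0.68 ± 0.20, Sbds by -0.64, Nip7 by -0.61, Ddx47 by -0.57, Emg1 by -0.55, Noc4l by -0.49, Nolc1 by -0.48, Nop56 by -0.47 and Wdr75 by -0.46, with adjusted p from 0.0136 to 0.0285. Utp20 differed by 0.87 ± 0.17 (adjusted p = 0.00151). In p53-/- cells Utp20 had 8.15, 8.44 and 8.78 after adriamycin, against 8.68, 8.82 and 8.85 untreated, so it rose in R1E and was not called in p53-/- cells. Of the panel, Ubtf (-0.27), Bop1 (-0.29), Pes1 (-0.38), Ddx10 (-0.25), Nvl (-0.22), Heatr1 (-0.18), Fbl (-0.36), Ncl (-0.06), Wdr12 (-0.05), Npm1 (0.03), Gnl3 (0.04) and Rrn3 (0.29) did not differ past the threshold.

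The result rests in part on single p53-/- arrays. Without untreated replicate 3 the members' median difference was -0.15, against -0.08 over all genes, with 14 members lower and 3 higher. Of the members 9 were lower without adriamycin replicate 1 and 8 without adriamycin replicate 2. At the threshold of 0.05, Bysl, Dkc1, Imp4, Nop58, Rrp15, Tcof1 and Utp20 were called in all 25 fits compared, which were the reported one and those with other scalings, spreads and priors, the replicate block and each of 18 arrays left out. At a threshold of 0.01 Rrp15 lost its call and the other 6 kept theirs. At 0.05, each fit without an R1E array called the same members as the reported fit, and UV arrays enter the difference only through the spread. Calls were thus lost only in the remaining fits, so the count of 25 overstates how far these calls were tried. Quantile normalization gave 14 lower and 3 higher, where 2376 of all 19935 genes were lower and 2326 higher. In the wider list 20 of 117 genes (17.1%) had a lower effect in R1E and 4 (3.42%) a higher one, where 17.8% and 14.2% of genes with a mean of 6 or more did. The largest was Senp3 (-1.22), and Mycn differed by -2.00 and Myc by -0.77.

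**Figure D4:**
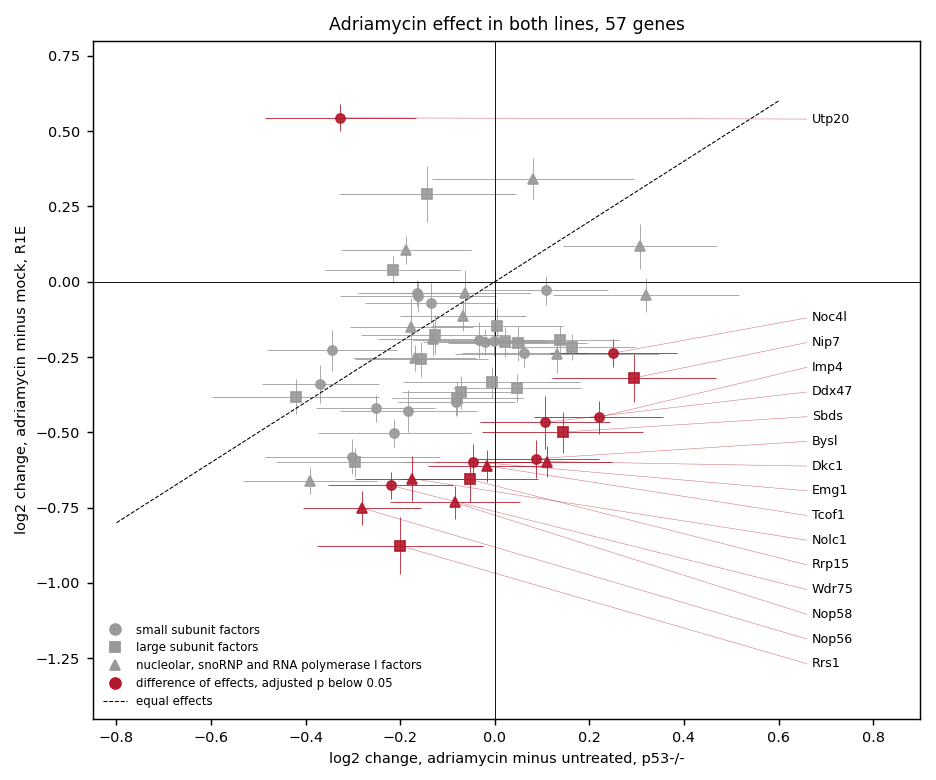
Adriamycin effect of the 57 genes in R1E (y axis, log2 change) against that in p53-/- cells (x axis, log2 change), with SE bars, a symbol shape per role class and the dashed line of equal effects. The 16 named red symbols passed the test of the difference, 15 of them below the line and Utp20 above it.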

How the data were processed

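Deposited values are log2 intensities, 1 per probe and array. Per the submitters' processing notes, Affymetrix Expression Console 1.1 made those of R1E (its algorithm: not given in the sources used here), and RMA in Partek 6.4 made those of p53-/-. RNA was taken with a spin-column kit, per the labels' protocols. Of 28853 probes 28815 had a value on every array, 21780 of these named 1 gene, and the brightest probe per gene gave 19935 genes. Ddx18, Fbl, Mrto4 and Wdr12 had a further probe.

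Fits used limma 3.58.1 (R 4.3.3), lmFit and eBayes, with no further normalization or filter: 1 fit over the 12 R1E arrays, 1 over the 6 p53-/- arrays, and the difference of effects from both fits with each set's own spread. The number of arrays limits the precision. Changes are given with moderated standard errors, and p-values were adjusted by Benjamini-Hochberg over all genes. Scripts were tested on simulated data.

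Members, gene lists, tests and alternatives were chosen with earlier results of these data known. Members named are, per comparison and role class, the 4 largest falls and 3 largest rises past the threshold, and a panel of 18 given whatever its values. In the wider list the 2 largest falls and rises past the threshold per part after adriamycin in R1E are named, and Myc, Mycn, Mdm2 and Rpl5 stand as context. A few further members, and Utp4 and Nol11 of the wider list, were named after their values were seen, to fill out complexes or short counts. Same-numbered arrays of a set did not deviate together (correlations of -0.14 to 0.16 in R1E and -0.10 to 0.19 in p53-/-), so the numbers were not taken as pairs. Between groups, arrays of unlike number had correlations of -0.42 to 0.39 in R1E and -0.17 to 0.08 in p53-/-. The reported fits took all arrays as independent. Alternatives were centring, quantile normalization, leaving out genes with a mean below 6, averaging probes, fitting only the groups compared, a replicate block, a trended robust prior, a shared spread, an adjusted p below 0.01 and each array left out.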

Additional observations from a re-analysis of the deposited data

Results flagged for a closer look

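A sample far from the others of its group was found in 4 of 171 member-by-group sets of 4 R1E arrays by Dixon's test at the 95% level, a test by which chance marks about 1 in 20 sets. UV replicate 2 was such a sample in 3 of them: it was high in Bop1 (9.69, the nearest at 9.551) and low in Nvl (9.886, the nearest at 10.005) and in Ncl (11.367, the nearest at 11.514). Mock replicate 4 was low in Nvl (10.197, the nearest at 10.309).

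The effect of adriamycin differed between R1E and p53-/- cells by the test of the difference in 16 members, and the values are R1E minus p53-/- on the log2 scale. Among small subunit factors they were -0.674 in Bysl, -0.669 in Imp4, -0.573 in Ddx47, -0.551 in Emg1, -0.488 in Noc4l, -0.455 in Wdr75 and 0.871 in Utp20. Among large subunit factors they were -0.676 in Rrs1, -0.643 in Sbds, -0.614 in Nip7 and -0.603 in Rrp15. Among nucleolar and snoRNP factors they were -0.708 in Dkc1, -0.648 in Nop58, -0.595 in Tcof1, -0.479 in Nolc1 and -0.471 in Nop56. In these differences genotype, line, array set and software cannot be told apart.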

How the results depend on the processing

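The members lower after adriamycin against mock in R1E numbered 35 (quantile normalization) to 50 (centring), around the 42 reported. Over all genes 28.1% were lower with quantile normalization and 48.4% with centring, against 25.6% as reported. After UV the members higher numbered 5 with centring and 17 with quantile normalization, against 9 as reported, and the members lower 27 and 16, against 23. Over all genes 3102 were higher after UV with centring and 3972 with quantile normalization, against 4515 as reported. Those lower numbered 5678 and 4534, against 4236. In p53-/- cells 2 members were lower without untreated replicate 3 and 0 under every other alternative run. In the difference of effects 5 members were lower at an adjusted p below 0.01, 21 with a shared spread, and 11 with the p53-/- changes multiplied by 1.16, the ratio of the SDs of gene levels, an alternative chosen after seeing the data. Over all genes 16.2% had a lower effect with a shared spread, against 11.4% as reported. Members with a higher effect numbered 3 with quantile normalization, against 1, where 2326 of all genes had a higher effect, against 2065. The cause of these moves was not tested.

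Leaving out 1 array at a time gave 41 to 42 lower and 2 to 4 higher for adriamycin in R1E, 17 to 24 and 7 to 10 for UV, 39 to 41 and 3 to 4 for adriamycin against UV, 0 to 2 and 0 to 0 in p53-/- cells, and 8 to 15 and 1 to 3 for the difference of effects. In the last, 9 and 8 were lower without p53-/- adriamycin replicates 1 and 2, and 3 were higher without untreated replicate 3. With a replicate block the counts lower and higher were 42 and 3, 21 and 8, 40 and 3, 0 and 0, and 15 and 1 in that order of comparisons. Over the values of named members under an alternative, 1959 kept their side of the threshold, 68 lost the call and 21 gained one. No value called in the reported fit, the alternative or both changed direction. For values called in neither, direction was not checked. The median SE of a member's change was 0.139 in p53-/- cells and 0.056 in R1E cells; how much of this gap is array number and how much array-to-array spread was not tested.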
